A study of Mus musculus with 6 samples.

Results

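The 10 genes described here mark natural killer cells or serve their effector function, and they were chosen by gene symbol: Eomes, Tbx21, Id2, Nfil3, Zeb2, Ncr1, Itga2, S1pr5, Xcl1 and Ccl5. They are 10 of the 16590 genes named on an Illumina MouseRef-8 v2 array and are read by 13 of its 25697 probes. Whole spleens were profiled on 3 arrays from mice labelled Rag2/pfp KO and on 3 arrays from mice labelled wild type. The labels give no strain, age or sex and do not say that each sample is its own animal, so the spread behind the p-values is that of these samples and may be technical. Rag2 is needed for V(D)J recombination and hence for B and T cells, and pfp is an older name for Prf1, which encodes perforin. The knockout carries both disruptions, and no group carries 1 of them alone.

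Natural killer cells are lymphocytes that kill stressed or transformed cells without rearranged antigen receptors, so they form in mice without Rag2, while killing through perforin is lost in mice without it. In mice their development needs Id2, an inhibitor of E proteins, and Nfil3, a basic leucine zipper factor, and later the T-box factors Eomes and T-bet, the product of Tbx21. T-bet and Zeb2, a zinc finger repressor, drive terminal maturation, when the cells gain S1pr5, the sphingosine 1-phosphate receptor by which they leave bone marrow and lymph nodes. Mature cells release the chemokines Xcl1 and Ccl5, which recruit dendritic cells and other leukocytes.

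Ncr1 is the most specific of the 10 genes, although some other innate lymphoid cells carry it. Tbx21, Eomes, Xcl1 and Ccl5 are also used by activated T cells, Itga2 by platelets, and Id2, Zeb2 and Nfil3 by dendritic cells, macrophages or other innate lymphoid cells. In RNA of a whole spleen, fewer cells of a type and less RNA per cell cannot be told apart.

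Promoters are shown for 4 members: S1pr5, whose probes lay furthest above wild type, Ncr1, the most specific marker, and Tbx21 and Xcl1, which hold a match to a motif of ZEB2 or RUNX. Sequences are from RefSeq, build GRCm38.p6, and run 5′ to 3′ over 250 bases before and 50 bases after the annotated start. Capitals mark matches on either strand to the T-box core AGGTGT, the ZEB2 E2-box CAGGTG, the E-box CANNTG bound by the E proteins that Id2 inhibits, the RUNX site TGTGGT, or the NFIL3 sites TTACGTAA and TTATGTAA. Every ZEB2 E2-box is also an E-box by these letters.
S1pr5, chr9:21248394-21248693, minus strand: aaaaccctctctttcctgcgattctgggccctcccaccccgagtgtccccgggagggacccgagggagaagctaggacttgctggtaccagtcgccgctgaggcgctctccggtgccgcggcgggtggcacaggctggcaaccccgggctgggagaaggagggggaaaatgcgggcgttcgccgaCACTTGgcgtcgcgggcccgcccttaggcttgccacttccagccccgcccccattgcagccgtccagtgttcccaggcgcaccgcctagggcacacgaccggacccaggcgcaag
Ncr1, chr7:4337465-4337764, plus strand: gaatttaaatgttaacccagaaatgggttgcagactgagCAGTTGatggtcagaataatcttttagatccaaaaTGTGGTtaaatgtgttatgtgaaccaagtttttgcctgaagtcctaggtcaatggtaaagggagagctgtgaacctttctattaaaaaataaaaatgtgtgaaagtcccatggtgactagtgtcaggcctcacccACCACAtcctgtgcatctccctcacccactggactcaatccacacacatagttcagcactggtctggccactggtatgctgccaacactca
Tbx21, chr11:97115282-97115581, minus strand: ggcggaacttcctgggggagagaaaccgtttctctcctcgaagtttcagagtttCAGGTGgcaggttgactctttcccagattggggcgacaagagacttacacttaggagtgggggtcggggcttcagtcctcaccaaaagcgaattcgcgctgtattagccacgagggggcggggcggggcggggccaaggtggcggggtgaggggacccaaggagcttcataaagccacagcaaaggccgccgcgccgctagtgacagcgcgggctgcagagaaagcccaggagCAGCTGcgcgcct
Xcl1, chr1:164935473-164935772, minus strand: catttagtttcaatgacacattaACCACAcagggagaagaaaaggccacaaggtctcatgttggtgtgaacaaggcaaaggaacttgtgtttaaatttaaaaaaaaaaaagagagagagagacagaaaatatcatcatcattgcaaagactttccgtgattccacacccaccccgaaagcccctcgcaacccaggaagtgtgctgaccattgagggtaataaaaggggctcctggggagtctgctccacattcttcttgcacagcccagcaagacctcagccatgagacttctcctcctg

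The table held promoters for 9 of the 10 members, 13 in all, since Zeb2 and Ncr1 have several starts. Counts below are of these 9 members, each matched if any of its promoters was, while the percentages are of single promoters. The RUNX site was matched in 2 members, Ncr1 and Xcl1, and in 16.7% of all 32544 promoters of the same length. Ncr1 held it at positions -176 and -41 relative to the first of its annotated starts. The ZEB2 E2-box was matched in 1 member, Tbx21, against 20.3% of all promoters. An E-box was matched in 5 members, namely Tbx21, Id2, Nfil3, Ncr1 and S1pr5, against 72.3% of all promoters. The T-box core was matched in 0 members (13.8% of all promoters) and the NFIL3 sites in 0 members (1.05%). These are matches of letters within 300 bases and not evidence of binding.

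A probe counts as detected at a detection p-value under 0.05 against negative control beads, which 12084 to 12595 probes met per knockout array and 12545 to 13149 per wild-type array. Normalized values correlated across probes at 0.931 to 0.958 among knockout arrays and at 0.978 to 0.987 among wild-type arrays. Knockout replicate 2 stood apart: Xist, which coats the inactive X chromosome, was not detected there by either probe and was detected on the other 5 arrays, while Eif2s3y, a gene of the Y chromosome, was detected on that array alone. The value without it is given beside each named difference that its omission moved by over 1.5 times. Rag2 was below detection on all 6 arrays. Prf1 was detected on all 6 arrays, at 10.98, 12.05 and 11.41 log2 in the knockout and 10.89, 10.99 and 11.55 log2 in wild type by its brighter probe. Where either probe lies relative to the disrupted sequence is not known here, so neither gene checked the labels.

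In spleens with far lower B and T cell transcripts, no natural killer gene of the set was called higher or lower, with S1pr5 the member furthest above wild type and Nfil3 the member furthest below over all 6 arrays. Of the 10 members, 8 were tested, that is detected on at least 3 of 6 arrays, and 9 of their 13 probes. The count of called members was 0 by limma at a Benjamini-Hochberg adjusted p under 0.05 over all 12885 tested probes, against 3.92% of all tested probes (0.978% higher, 2.94% lower) and 3.92% of all 9158 tested genes. With 3 arrays per group, a member that was not called is not thereby shown to be unchanged. At an unadjusted p under 0.05 the count was 2 of 8 members, against 18.4% of all tested genes. The median difference of the 8 members, knockout minus wild type, was 0.25 log2, with 6 above 0 and 2 below, and that of all tested genes was 0.03 log2, with 53.2% above 0. The 2 groups were fully separated on 2 of the 9 tested member probes, one of S1pr5 and that of Nfil3, against 24.4% of all tested probes.

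**Figure D1:**
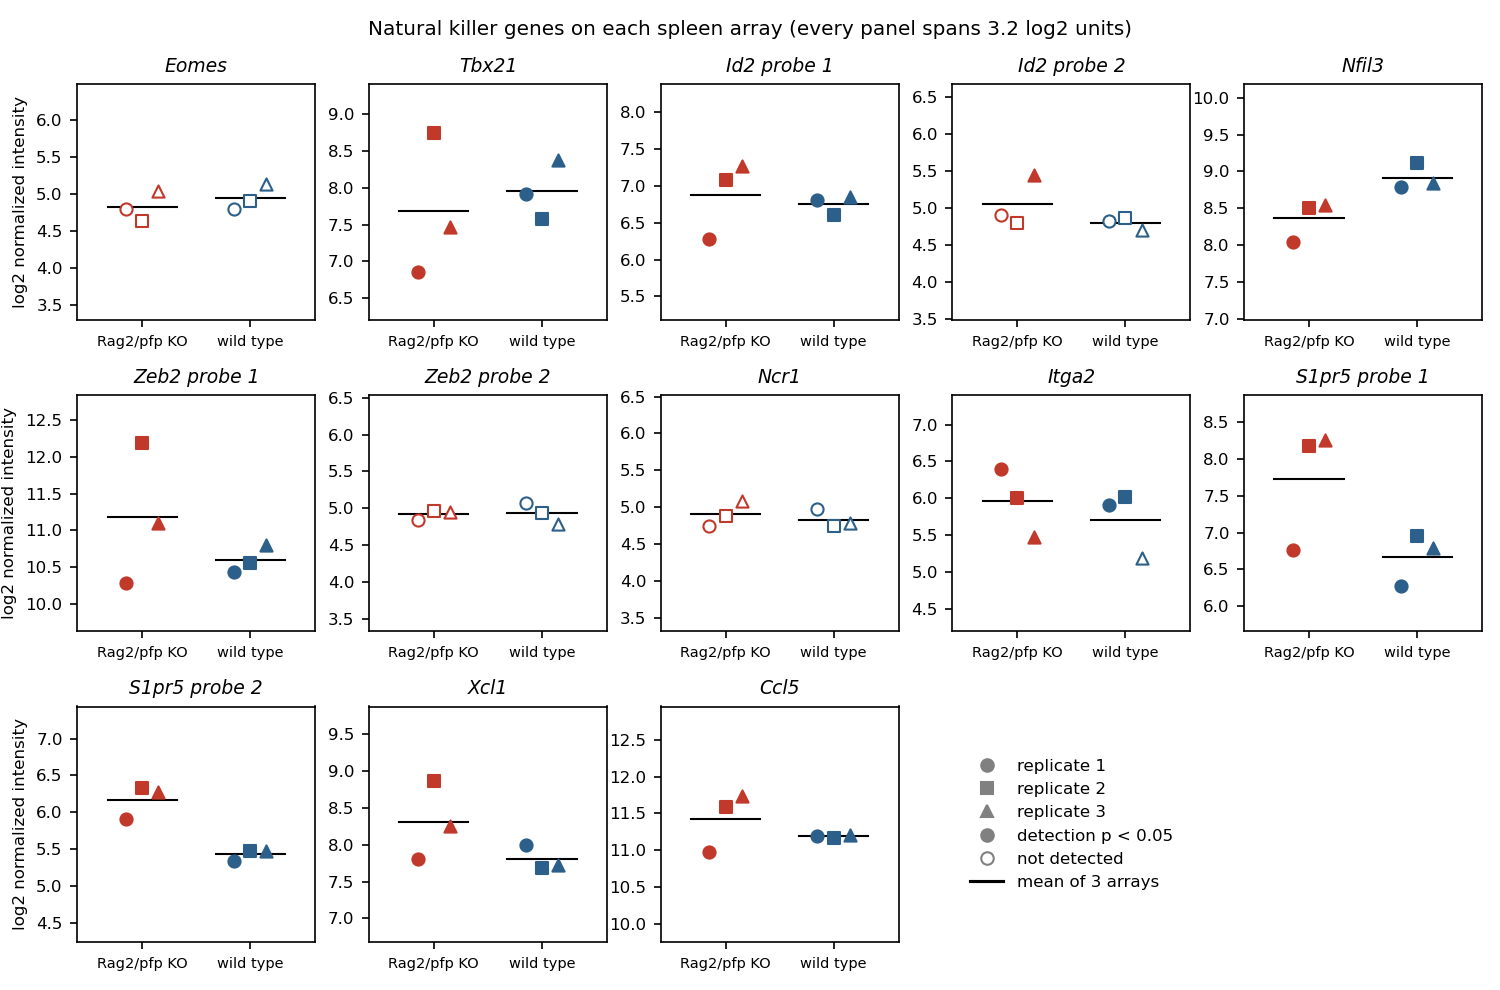
Normalized log2 intensity (vertical axis) of the 13 member probes on the 3 knockout and 3 wild-type spleen arrays; filled points are detected, open points are not, and bars are group means. Knockout replicate 1 is the lowest knockout array for 7 of the 8 tested genes, and Eomes and Ncr1 are detected on no array.

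Among the transcription factors, Eomes gave no measurable level. Its probe was detected on 0 of 6 arrays and read 4.79, 4.63 and 5.04 log2 in the knockout and 4.80, 4.90 and 5.14 log2 in wild type. These values lie at background, where a difference was not detectable, and no fold is given.

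Tbx21, which encodes T-bet, was detected on all 6 arrays. It read 6.86, 8.74 and 7.47 log2 in the knockout and 7.91, 7.57 and 8.38 log2 in wild type. The knockout arrays spread beyond the wild-type arrays on both sides, with replicate 2 the highest of all and replicate 1 the lowest. The difference was -0.27 ± 0.45 log2 (SE; limma adjusted p = 0.829), with a 95% interval of -1.28 to 0.75, which spans 0.411-fold to 1.68-fold. It was 0.15 log2 without knockout replicate 1 and -0.79 log2 without knockout replicate 2, so 1 array set its sign.

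Zeb2 showed the same order of knockout arrays on its brighter probe, with 10.28, 12.18 and 11.10 log2 in the knockout and 10.43, 10.56 and 10.80 log2 in wild type. Replicates 2 and 3 of the knockout lay above all wild-type arrays and replicate 1 below them. Before normalization the signal of that probe was 1505.3, 3703.6 and 1933.4 in the knockout and 1813.2, 1791.3 and 1851.7 in wild type. Replicate 2 was the brightest array in raw signal as well. The difference was 0.59 ± 0.43 log2 (SE; adjusted p = 0.542, 95% interval -0.37 to 1.55). It was 0.09 log2 without knockout replicate 2 and 1.04 log2 without replicate 1, and neither was called. The other Zeb2 probe was detected on 0 of 6 arrays.

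Id2 was read by 2 probes that differed in what they detected. Its brighter probe read 6.28, 7.08 and 7.27 log2 in the knockout and 6.81, 6.61 and 6.85 log2 in wild type, again with knockout replicate 1 below and replicates 2 and 3 above every wild-type array. The difference was 0.12 ± 0.29 log2 (SE; adjusted p = 0.889), with an interval of -0.54 to 0.78, or 0.688-fold to 1.72-fold. Without between-array normalization the difference was -0.38 log2 and with median centring -0.21 log2, so its sign depends on the scaling. It was 0.02 log2 without knockout replicate 2 and -0.08 log2 without replicate 3. The other Id2 probe was detected on knockout replicate 3 alone and was not tested.

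Nfil3 was lower on each knockout array than on any wild-type array, although the difference was not called. It read 8.05, 8.5 and 8.55 log2 in the knockout and 8.79, 9.11 and 8.85 log2 in wild type. The raw signal was 394.1, 370.1 and 404.8 in the knockout and 685.1, 748.1 and 577.2 in wild type, a ratio of means of 0.582. The normalized difference was -0.55 ± 0.24 log2 (SE; limma, unadjusted p = 0.0499, adjusted p = 0.276), and 12% of all tested probes were likewise lower without overlap. Without between-array normalization, a scaling under which all tested probes had a median of -0.33 log2, Nfil3 differed by -1.0 log2 (adjusted p = 0.0455). With median centring, where that median was -0.16, it differed by -0.83 log2 (adjusted p = 0.0841).

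Among the surface receptors, Ncr1, which encodes the activating receptor NKp46, was detected on 0 of 6 arrays. It read 4.75, 4.88 and 5.09 log2 in the knockout and 4.97, 4.74 and 4.78 log2 in wild type. Its promoter is the one printed above with 2 RUNX matches. The most specific marker of the set therefore gave no measure of natural killer cells in either group.

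S1pr5 was the member furthest above wild type, and both of its probes had a higher mean in the knockout. The brighter probe read 6.77, 8.18 and 8.25 log2 in the knockout and 6.27, 6.95 and 6.79 log2 in wild type. Knockout replicates 2 and 3 lay above every wild-type array, and replicate 1 lay among them. The difference was 1.06 ± 0.40 log2 (SE; adjusted p = 0.203), a 2.08-fold higher value with an interval of 1.11-fold to 3.92-fold, and 6.45% of all tested probes differed by more in either direction. The dimmer probe read 5.91, 6.33 and 6.27 log2 in the knockout and 5.34, 5.48 and 5.47 log2 in wild type, with no overlap, as for 12.4% of all tested probes in that direction. It differed by 0.74 ± 0.23 log2 (SE; adjusted p = 0.115).

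Whether S1pr5 was called depended on knockout replicate 1 and on the model. Without that array the brighter probe differed by 1.54 log2 and was called (adjusted p = 0.0177), and the dimmer probe differed by 0.87 log2 (adjusted p = 0.0550). Without knockout replicate 2 the brighter probe differed by 0.84 log2 and without replicate 3 by 0.80 log2, and neither was called. With all 6 arrays and the replicate number as a block, the brighter probe was called as well (1.06 log2, adjusted p = 0.0404), although the numbers showed no steady pairing of the samples. The scaling set its size: without between-array normalization the brighter and dimmer probe differed by 0.56 and 0.38 log2, and with median centring by 0.73 and 0.56 log2, and under both Nfil3 lay further from 0. In the deposited log2 values, which have no background correction, the differences of the brighter and dimmer probe were 0.62 and 0.26 log2. The dimmer probe is close to background, with detection p-values of 0.0138, 0.0113 and 0.00752 in the knockout and 0.0388, 0.0276 and 0.0439 in wild type.

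Itga2, the collagen-binding integrin chain known as CD49b or DX5 antigen, was detected on 5 of 6 arrays. It read 6.40, 6.01 and 5.47 log2 in the knockout and 5.91, 6.02 and 5.19 log2 in wild type, where replicate 3 was not detected. The groups overlapped, and the difference was 0.26 ± 0.32 log2 (SE; adjusted p = 0.760, interval -0.47 to 0.99). Itga2 was the 1 member that did not have its lowest knockout value on replicate 1. Its sign turned without between-array normalization (-0.10 log2) and with array weights (-0.08 log2).

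Of the chemokines, Xcl1, a ligand for the receptor of cross-presenting dendritic cells, read 7.81, 8.87 and 8.26 log2 in the knockout and 8.0, 7.68 and 7.72 log2 in wild type. Knockout replicates 2 and 3 lay above the wild-type arrays and replicate 1 lay within them. The difference was 0.51 ± 0.30 log2 (SE; adjusted p = 0.427, interval -0.16 to 1.19), or 0.24 log2 without knockout replicate 2. Without between-array normalization it was 0.04 log2.

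Ccl5, also called RANTES, was the member with the tightest wild-type values. It read 10.97, 11.59 and 11.73 log2 in the knockout and 11.19, 11.16 and 11.21 log2 in wild type, an SD of 0.40 in the knockout and 0.03 in wild type (n = 3 each). Replicate 1 of the knockout was below and replicates 2 and 3 were above all wild-type arrays. The difference was 0.24 ± 0.26 log2 (SE; adjusted p = 0.707), a 1.18-fold value with an interval of 0.788-fold to 1.78-fold. In raw signal the knockout mean was 0.994 times the wild-type mean.

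**Figure D2:**
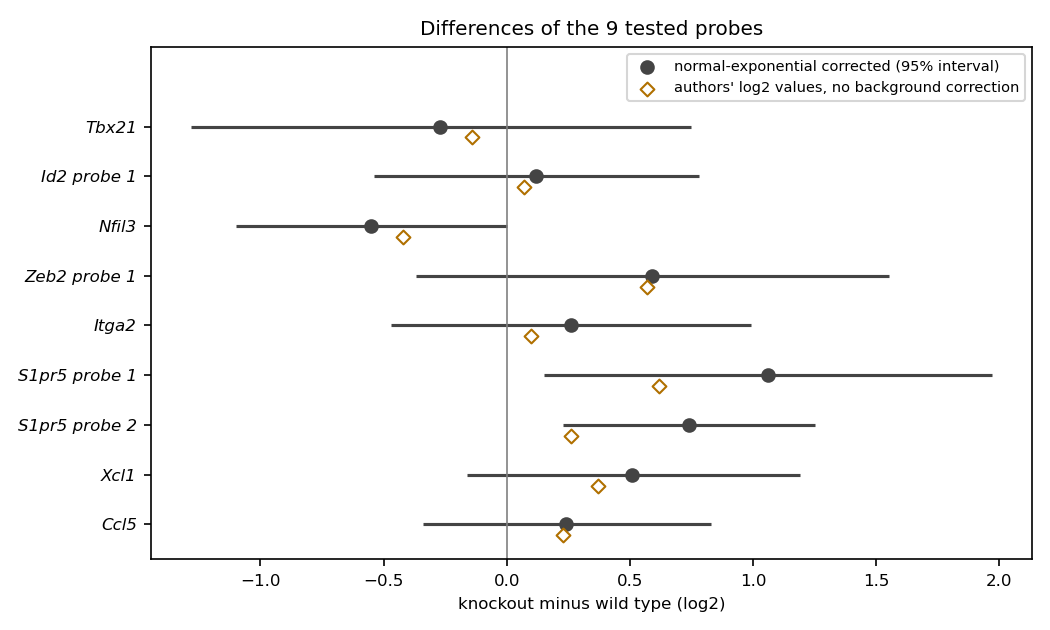
Knockout minus wild-type difference (horizontal axis, log2) of the 9 tested member probes, with 95% intervals from limma, and the same difference in the deposited log2 values. The intervals of both S1pr5 probes lie above 0 and that of Nfil3 ends at 0; no adjusted p was under 0.05.

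Most members shared the lowest knockout array but not the highest. Knockout replicate 1 held the lowest knockout value for 7 of the 8 tested members, where 41.8% of all tested genes had their lowest knockout value on that array. The highest knockout value was on replicate 1 for 1 member, on replicate 2 for 3 and on replicate 3 for 4. For all tested genes these shares were 31.9%, 34.3% and 33.8%. Relative to the wild-type mean, the 8 members averaged -0.27 log2 on knockout replicate 1, 0.69 log2 on replicate 2 and 0.31 log2 on replicate 3, while the wild-type arrays lay at -0.03, 0.01 and 0.03 log2. The SD across knockout arrays was 0.96 log2 for Tbx21 and also 0.96 for Zeb2, and 3.87% and 3.97% of all tested genes had a larger one. For S1pr5 it was 0.83 log2, exceeded by 7.99% of genes, and the median of all tested genes was 0.40 log2 in the knockout and 0.20 log2 in wild type.

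**Figure D3:**
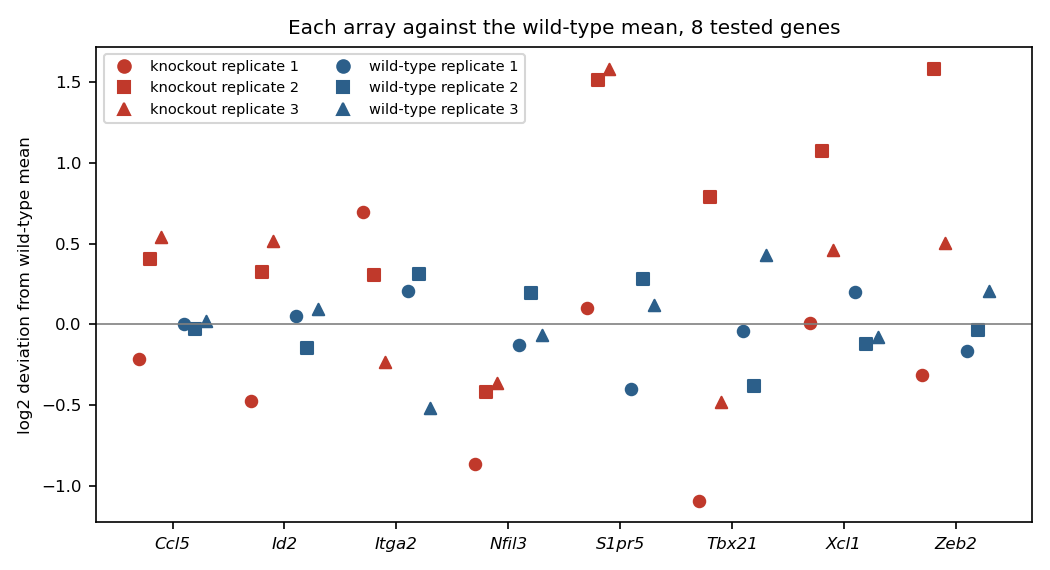
Deviation of each array from the wild-type mean (vertical axis, log2) for the 8 tested member genes, with knockout arrays in red and wild-type arrays in blue. Knockout replicates 2 and 3 lie above the wild-type mean for S1pr5, Zeb2, Xcl1, Ccl5 and Id2, and all 3 knockout arrays lie below it for Nfil3.

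Pairs of members can be compared over the 6 arrays, as a description of arrays that share scaling and group. Id2 and Ccl5 correlated at 0.95, Zeb2 and Xcl1 at 0.91, S1pr5 and Ccl5 at 0.89, and Zeb2 and S1pr5 at 0.81. Nfil3 correlated at -0.29 with Xcl1 and at 0.03 with Ccl5, and Itga2 at -0.64 with Id2. Since Eomes and Ncr1 were not tested, the genes most like Ccl5, the brightest tested member, were taken from 9150 other genes. They were Car9 (Pearson r = 0.992), Gna14 (0.988), Napb (0.988), Dag1 (0.988) and Ubd (0.986), which share with Ccl5 a low knockout replicate 1 and high replicates 2 and 3. Car9, for example, read 5.71, 6.72 and 6.85 log2 in the knockout and 5.94, 5.89 and 6.03 log2 in wild type. None of the 5 was called.

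Other genes of natural killer cells were read from lists beside the members. Of 20 tested receptors and adaptors, 1 was higher, 0 were lower and 19 were not called, with a median of 0.22 log2 and 12 above 0. The called gene, named after its values were seen, was Klrb1b, a lectin-like receptor, which differed by 2.09 ± 0.39 log2 (SE; adjusted p = 0.0223). Klrb1b was detected on 3 knockout arrays but only 1 wild-type array, so it passed the detection filter through the knockout. It read 5.14, 5.18 and 5.62 log2 in wild type, near background, which limits what the size of the difference can show. Its call was lost without any single wild-type array, without knockout replicate 2 or 3, without background correction (0.94 log2) and when every probe was tested, at adjusted p values up to 0.107. Klrb1c, which encodes the NK1.1 antigen in some strains, read 7.55, 8.47 and 8.08 log2 in the knockout and 6.39, 6.77 and 7.22 log2 in wild type, without overlap. It differed by 1.24 ± 0.32 log2 (adjusted p = 0.0677), and was called without knockout replicate 1 (1.49 log2, adjusted p = 0.0315), with array weights (1.34 log2, adjusted p = 0.0221) and with the replicate block (1.24 log2, adjusted p = 0.0144). Klrk1, the NKG2D receptor gene, differed by 0.84 ± 0.29 log2 on its brightest probe, without overlap (adjusted p = 0.160). The dimmer tested probes of Klrk1 also lay above 0 but by less (adjusted p = 0.75 and 0.383), and a further probe was detected on no array. Il2rb, the shared receptor chain for interleukins 2 and 15, differed by 0.28 ± 0.40 log2 (adjusted p = 0.796), or 0.03 log2 without knockout replicate 2. The brightest adaptors, Tyrobp and Fcer1g, which myeloid cells also express, differed by -0.04 ± 0.31 and -0.17 ± 0.24 log2, or by -0.38 and -0.32 log2 without knockout replicate 2. Other genes of the list lay above or below wild type without overlap, as did 12.4% and 12% of all tested probes. Klre1 and Klrg1, named after their values were seen, differed by 0.93 ± 0.24 and 1.20 ± 0.32 log2 and were not called (adjusted p = 0.0685 and 0.0809). Cd96 and Hcst, also named after their values were seen, differed by -1.01 ± 0.26 and -0.85 ± 0.33 log2 and were not called (adjusted p = 0.0685 and 0.209).

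Transcription factors that act with the members were lower or not called. Of 12 tested, 0 were higher, 3 were lower and 9 were not called, with a median of -0.73 log2. Ets1, a factor of T, B and natural killer cells, fell by 2.16 ± 0.24 log2 (SE; adjusted p = 0.00122). Foxo1, which in mouse natural killer cells restrains Tbx21, fell by 1.74 ± 0.24 log2, and Klf2, a regulator of lymphocyte trafficking, fell by 1.34 ± 0.24 log2. All 3 are known from B and T cells too, whose part in these differences was not tested. The call of Klf2 was lost without any single wild-type array, with adjusted p up to 0.122.

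Called genes of the list set beside S1pr5 were lower. Of 7 tested genes of sphingosine 1-phosphate signalling and lymphocyte egress, 0 were higher, 2 were lower and 5 were not called, with a median of -0.31 log2. S1pr4, the receptor of the same family found on many lymphocytes, fell by 1.67 ± 0.36 log2 (SE; adjusted p = 0.0371). It read 6.25, 6.13 and 5.05 log2 in the knockout, where replicate 3 was not detected, and 7.69, 7.05 and 7.70 log2 in wild type. Its call was lost without any single wild-type array, without knockout replicate 3, without background correction (-0.78 log2) or with every probe tested (adjusted p up to 0.167). Cd69, an activation antigen that holds lymphocytes in tissue, fell by 2.57 ± 0.26 log2 (adjusted p = 6.48e-04). The 1 gene of this list above 0 was Sphk1, named after its values were seen. It differed by 0.89 ± 0.22 log2 and was not called (adjusted p = 0.064). The list set beside Itga2 held integrin chains, the collagen receptor gene Ddr1 and Cd27, and of its 7 tested genes 1 was lower, with a median of -0.31 log2. That gene was no integrin or collagen receptor but Cd27, a costimulatory receptor of T cells and of immature natural killer cells, which fell by 2.53 ± 0.29 log2 (adjusted p = 0.00145). Ddr1 differed by 0.11 ± 0.34 log2, or -0.14 log2 without knockout replicate 2, and no integrin chain was called.

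Effector and chemokine genes lay on both sides of 0, with medians below it. Of 9 tested effector genes, 0 were higher, 1 was lower and 8 were not called, with a median of -0.31 log2. The called gene, named after its values were seen, was Gzmm, which encodes granzyme M and fell by 1.28 ± 0.26 log2 (SE; adjusted p = 0.0321). Its call was lost without any single wild-type array, without knockout replicate 1 or 3 and when every probe was tested, at adjusted p values up to 0.179. Prf1 differed by 0.34 ± 0.32 log2 (adjusted p = 0.670), or 0.05 log2 without knockout replicate 2, and the brightest members, Lamp1 and Ctsc, by -0.28 ± 0.22 and -0.36 ± 0.29. Gzma and Gzmb were detected on 0 of 6 arrays by their probes. Of 7 tested chemokine and chemokine receptor genes beside the members, 0 were higher, 1 was lower and 6 were not called, with a median of -0.21 log2. The called gene, again named after its values were seen, was Cxcr3, a receptor of activated T cells and natural killer cells, which fell by 2.11 ± 0.26 log2 (adjusted p = 0.00293). Ccl3 and Ccl4, ligands of a receptor of Ccl5, also named after their values were seen, differed by 0.87 ± 0.25 and 0.95 ± 0.32 log2 and were not called (adjusted p = 0.0995 and 0.147). Without knockout replicate 1, Ccl4 differed by 1.27 log2 and was called (adjusted p = 0.0260), as it was with array weights (1.11 log2, adjusted p = 0.0319). The brightest genes of this list, Ccl9 and Cxcr4, differed by -0.23 ± 0.32 and -0.32 ± 0.25 log2, and Ccl9 by -0.48 log2 without knockout replicate 2.

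**Figure D4:**
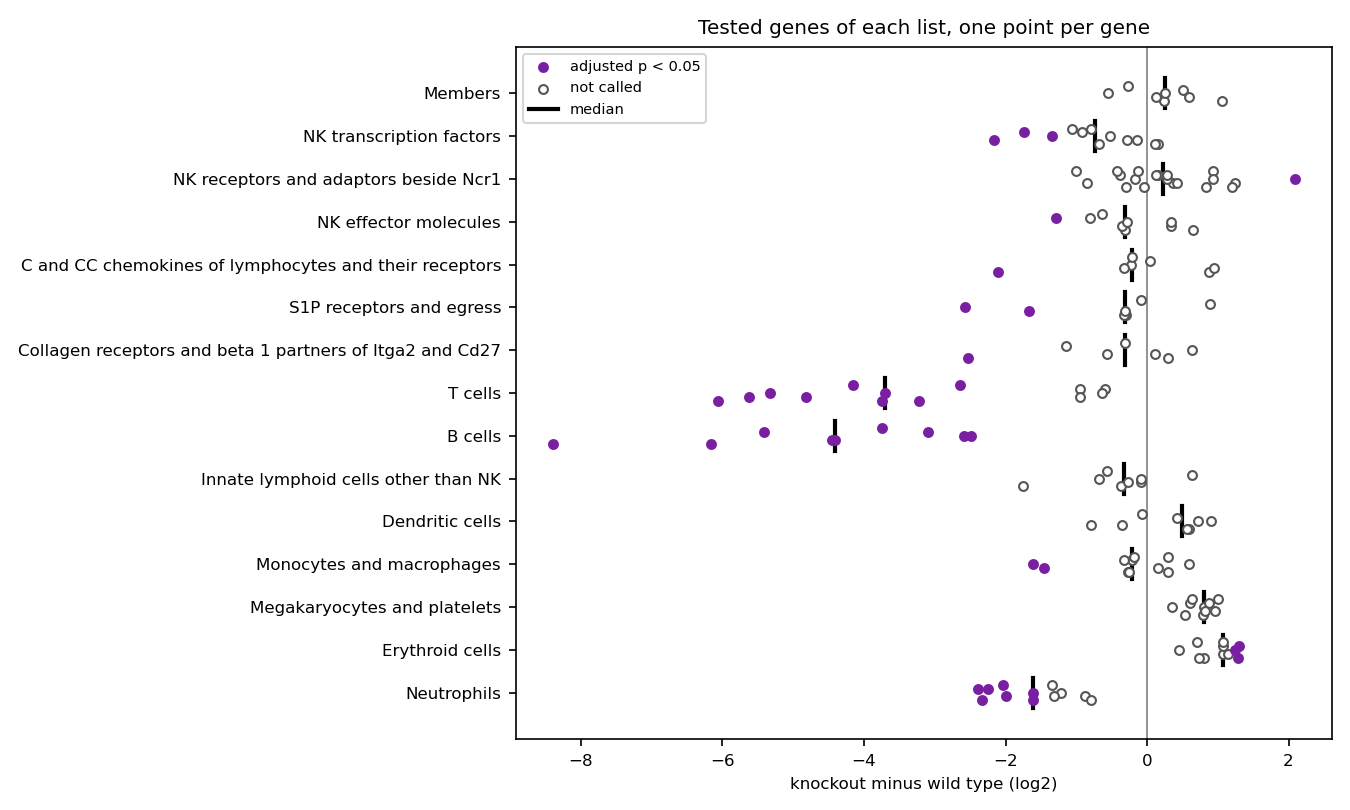
Knockout minus wild-type difference (horizontal axis, log2) of every tested gene, one point per gene, for the members and for 14 lists of related genes and other cell types; filled points had an adjusted p under 0.05 and bars are medians. The 8 members lie around 0, with a median of 0.25, while T cell genes have a median of -3.70 and B cell genes of -4.41.

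Markers of the other cells that use the member genes were read for comparison, with no test of their difference from the members. For Tbx21, Xcl1 and Ccl5, the T cell list is the relevant one: 9 of 13 tested genes were lower, with a median of -3.70 log2, and 5 of the 13 were not detected on any knockout array, Cd3e and Cd6 among them. The summed normalized intensity of that list lay between 723 and 1345 on knockout arrays and between 14514 and 17133 on wild-type arrays. All 9 tested B cell genes were lower, with a median of -4.41 log2 and a summed intensity of 763 to 990 on knockout arrays and 28747 to 33580 on wild-type arrays. Of these 9, 3 were not detected on any knockout array. Genes of both lists that no knockout array detected passed the detection filter through wild type alone. The share of member signal that T cells gave in wild-type spleens was not tested. Quantile normalization rests on all probes, so differences of the members are relative to an RNA pool with fewer B and T cell transcripts.

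For Itga2, which platelets carry, all 10 tested megakaryocyte and platelet genes lay above 0, with 0 called, a median of 0.80 log2 and a summed intensity of 19353 to 26750 in the knockout and 11303 to 17181 in wild type. For Id2, Zeb2 and Nfil3, the dendritic cell list had 0 of 8 called and a median of 0.50 log2, with means relative to wild type of -0.29, 0.36 and 0.68 log2 on knockout replicates 1, 2 and 3. Its summed intensity was 4721 to 10335 in the knockout and 7727 to 8924 in wild type. Monocyte and macrophage genes had 2 of 11 lower and a median of -0.21 log2, with means of -0.51, 0.01 and -0.31 log2 on the 3 knockout arrays and sums of 27058 to 35884 in the knockout and 31376 to 52541 in wild type. Innate lymphoid genes other than those of natural killer cells had 0 of 8 called and a median of -0.32 log2, with sums of 2400 to 5500 in the knockout and 5031 to 6154 in wild type. Of 15 such genes with a probe, 6 were not detected on any array.

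Knockout replicate 1 also stood apart in lists that have no member. Erythroid genes, of which 3 of 11 were higher, averaged 1.64 log2 above wild type on that array and 0.65 and 0.68 log2 on replicates 2 and 3. Neutrophil genes, of which 7 of 12 were lower, averaged -2.41 log2 on that array and -1.22 and -1.32 log2 on the other two. The receptor and adaptor genes of natural killer cells averaged -0.13 log2 on replicate 1 and 0.52 and 0.45 log2 on replicates 2 and 3. Whether these cell types have a part in how the knockout arrays differ for the members was not tested.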

How the data were processed

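Signal intensity of 25697 probes and a detection p-value for each were deposited by the authors for 6 arrays, as non-normalized values per the file headers. The submitters' processing notes name GenomeStudio 2011.1. Biotin-labelled RNA was made from 500 ng of total RNA per sample, per the labels' protocols. A second deposited table holds log2 values of unstated method, which equalled the log2 raw signal after quantile normalization alone, within 5e-07. The genome build is not given in the sources used here.

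Intensities were corrected with a normal-exponential model, given an offset of 16, quantile-normalized and put on a log2 scale with neqc in limma 3.58.1 (R 4.3.3). Differences are thus of log2(value + offset), which understates changes of dim genes. Probes with a detection p under 0.05 on at least 3 of 6 arrays were fitted with lmFit and eBayes, group being the only term, and p-values were adjusted by the Benjamini-Hochberg method over all 12885 tested probes. The fit was tested on simulated data. With 3 arrays per group, the number of arrays limits the precision. Groups and replicate numbers came from sample titles. Symbols came from the platform annotation, updated by gene number or accession (23978 probes named, 1719 unnamed here). A gene in a list is read by its brightest tested probe.

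The members and all lists were chosen with earlier results of these data known. Named genes are all members, the targeted genes, close neighbours (Prf1, Gzma, Gzmb, Klrk1, Klrb1c, Il2rb), the 5 genes most like Ccl5, and from the lists of natural killer genes up to 3 called genes with the largest change, or the 2 brightest where fewer than 2 were called. For other cell types counts are given. Alternatives were background correction, scaling, detection filters, offset, variance model, array weights, a replicate block and each array left out. The headers name no slide, so a slide block was not run. Promoter letters were searched with Python 3.11.15.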

Additional observations from a re-analysis of the deposited data

How the results depend on the processing

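Among the 20 alternatives, the deposited log2 values and the omission of background correction were in effect the same setting. The count of called members was 0 in 17 of the 20. It was 1 without between-array normalization (Nfil3, lower), 1 with the replicate block (S1pr5, higher, adjusted p = 0.0404) and 0 to 1 when single arrays were left out (S1pr5 without knockout replicate 1). The median difference of the members lay between -0.06 log2, without between-array normalization, and 0.45 log2, without knockout replicate 1. Over all tested probes 505 were called, 126 higher and 379 lower. The count was 873 without between-array normalization (16 higher, 857 lower), 323 with detection required on all 6 arrays, 790 with array weights, and 168 to 684 when single arrays were left out, lowest without wild-type replicates 1, 2 and 3 (168, 172 and 186). Median centring gave 49 higher and 661 lower, and the median of all tested probes was then -0.16 log2, against -0.33 without normalization. The cause of these shifts was not tested. That includes the smaller number of probes or arrays that a filter or an omission leaves.

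The replicate numbers showed no steady pairing of the samples: deviations from the group means of same-numbered arrays correlated at 0.495, -0.283 and -0.037. Those of differently numbered arrays correlated at -0.386 to 0.502, and what the higher values reflect was not tested. With the replicate block 887 probes were called.

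Signs turned, without any call, in these cases. Without between-array normalization the difference was -0.38 log2 for Id2, -0.10 for Itga2, -0.01 for Ccl5, -0.20 for Il2rb and -0.32 for Ddr1. With median centring it was -0.21 for Id2, -0.03 for Il2rb and -0.15 for Ddr1. With array weights it was 0.04 for Tbx21 and -0.08 for Itga2. With single arrays left out, the range was -0.79 to 0.15 for Tbx21, -0.08 to 0.42 for Id2, 0.00 to 0.50 for Itga2, -0.14 to 0.50 for Ddr1, -0.38 to 0.18 for Tyrobp and -0.48 to 0.07 for Ccl9. Eomes, Ncr1 and the second probe of Zeb2 were above background on no array, and the second probe of Id2 on 1, which limits what they can show.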
